A study of Homo sapiens with 12 samples.

Results

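The cluster of miR-188, miR-532 and miR-500 is a run of miRNA hairpins on the X chromosome inside the gene CLCN5. Of its mature miRNAs, 8 were followed in osteosarcoma cells before and during culture in osteogenic medium. The members were hsa-miR-188-5p, hsa-miR-532-5p, hsa-miR-532-3p, hsa-miR-500, hsa-miR-502-3p, hsa-miR-362-5p, hsa-miR-362-3p and hsa-miR-660, taken by name from the 851 human miRNAs of the value table. The other mature miRNAs of the same hairpins, of which 5 had a row, are given beside them.

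The study profiled Saos-2, a human osteosarcoma line, and Sa/CD99, Saos-2 cells stably transfected with CD99, a cell surface molecule, by the calcium-phosphate method and selected in neomycin. Sa/CD99 was represented by the clones wt22 and wt36, with 1 array of each at day 0, day 7 and day 14. Day 0 stood for basal conditions, and days 7 and 14 for time in osteogenic medium. That medium held less serum than the routine medium, with β-glycerophosphate and ascorbic acid added. In a difference from day 0, the change of medium and the time in culture cannot be told apart. Untransfected Saos-2 cells had 2 arrays at each of the same days, numbered 1 and 2, so that 12 arrays fell into 6 groups of 2. The sources do not say whether the Saos-2 arrays came from separate cultures, and p-values then measure only the spread between arrays, which may be technical. The arrays hold no mRNA probes, so neither CD99 nor a marker of bone cells could be checked on them.

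miRNA genes are transcribed as long primary transcripts, from which hairpins are cut in the nucleus and then trimmed in the cytoplasm to mature strands of either arm, named 5p and 3p. A mature miRNA pairs with target mRNAs mainly through its seed, here bases 2 to 8. Hairpins lying close together on the same strand often share a primary transcript, and an intronic cluster may be read with its host gene. CLCN5 encodes a chloride and proton exchanger of endosomes, and miR-188 is known in bone marrow stromal cells for a part in the choice between fat and bone formation. Whether co-transcribed members rose together with day was the question put to the data.

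RefSeq (GRCh38.p14) places the hairpins from MIR532 to MIR502 at chrX:50003148-50014683, a stretch of 11536 bp on the plus strand, and CLCN5 at X, 49922596 to 50099230, on the same strand. The 7 hairpins with an entry all lay inside CLCN5. Whether each lies in an intron was not checked here. MIR188 starts 355 bp after the start of MIR532, MIR500A 5283 bp, MIR362 5816 bp, MIR500B 7524 bp, MIR660 10093 bp and MIR502 11450 bp after it. The mature sequences are shown because the arrays read mature strands and because some mature miRNAs of the cluster share runs of bases. The seed is in capitals, 5′ to 3′.
hsa-miR-188-5p: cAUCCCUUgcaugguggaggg
hsa-miR-500: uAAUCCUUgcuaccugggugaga
hsa-miR-501-5p: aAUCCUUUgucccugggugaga
hsa-miR-362-5p: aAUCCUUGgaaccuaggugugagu
hsa-miR-532-5p: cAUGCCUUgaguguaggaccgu
hsa-miR-532-3p: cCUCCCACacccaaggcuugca
hsa-miR-362-3p: aACACACCuauucaaggauuca
hsa-miR-502-3p: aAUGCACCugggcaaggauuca

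No 2 of these 8 sequences had the same seed, while miR-502-3p shared its seed with miR-501-3p. miR-500, miR-362-5p, miR-501-5p and miR-502-5p all held AUCCUU within bases 1 to 8 of the mature strand. This motif, searched on the mature strand as written, stood there in 5 of 2370 human mature miRNAs (0.211%), and all 5 lay in this cluster, the fifth being miR-500b-5p. The whole of miR-500 occurred in the hairpins of both MIR500A and MIR500B, so the row named miR-500 cannot tell these loci apart. miR-500 and miR-501-5p shared their last 11 bases. The RefSeq table used held a mature entry for 7 of the 8 members, and miR-660 is named only.

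**Figure D1:**
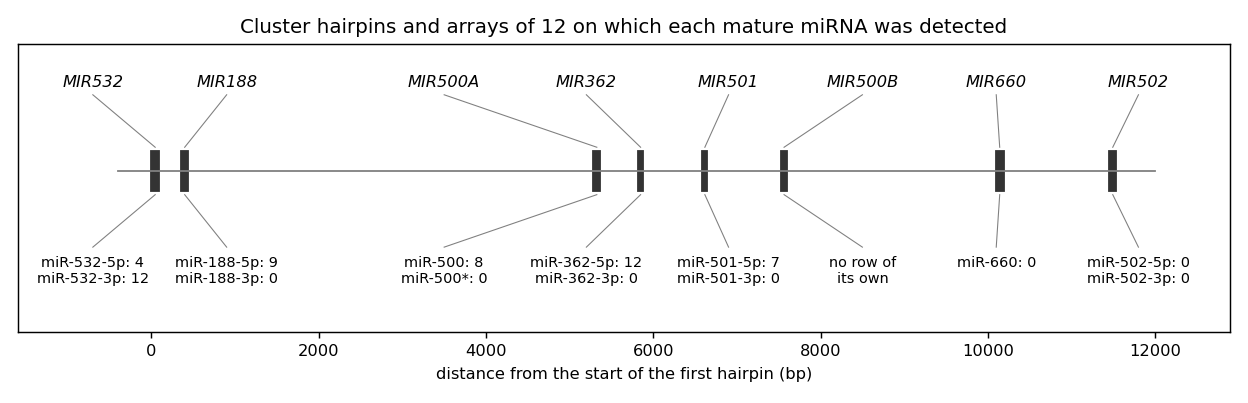
Map of the cluster, with the distance in bp from the start of the first hairpin on the x axis. Dark boxes are hairpins (for MIR501, the span of its mature arms), and the numbers below count the arrays, of 12, on which each mature miRNA was detected. miR-532-3p and miR-362-5p were detected on 12, miR-188-5p on 9, miR-500 on 8, and miR-660, miR-502-3p and miR-362-3p on none.

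The value table and the scanner files pair arrays and samples differently. Each table column, 12 in all, had the detection pattern of a single scanner array over all 847 names they share, but for 0 of the 12 was that array filed under the column's own sample. The values below follow the labels of the table, and results under the filing of the scanner arrays are given beside them. Under the labels of the table, slide 1 held the day 0 arrays and the day 7 arrays of Saos-2, and slide 2 held the rest. Day 14 was thus compared with day 0 across slides, and only the arrays of day 7 were split over both. A fit with cell type, day and slide as additive terms, which takes the change with day to be the same in both cell types, is given beside the results on day. Its slide term is set by the day 7 arrays, where Saos-2 lay on slide 1 and Sa/CD99 on slide 2. A cell type difference particular to day 7 therefore enters the slide term and, through it, the differences between days. The 4 arrays of day 0 also had the lowest total signal, 8594.5 to 11371.4 units against 25231.7 to 62235.5 at days 7 and 14, and detected 133 to 158 miRNAs against 158 to 229. The part of this difference in the results on day was not tested.

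Detection split the members into 4 kinds. miR-532-3p and miR-362-5p were detected on all 12 arrays, miR-188-5p and miR-500 were at or near the limit at day 0 and detected on all 8 arrays of days 7 and 14, and miR-532-5p was detected on 4 scattered arrays. miR-502-3p, miR-362-3p and miR-660 were detected on no array, as were 589 of the 851 miRNAs (69.2%). A miRNA was tested where both arrays of at least 1 group detected it, which left 4 of the 8 members and 219 miRNAs in all. The 4 tested members are therefore not the cluster as a whole.

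miR-188-5p, the 5p strand of the hairpin next to MIR532, showed the largest difference between days among the 4 tested members. In the table (normalized log2 expression), both Sa/CD99 clones were undetected at day 0, wt22 and wt36 stood at 7.20 and 7.26 at day 7, and at 7.72 and 7.56 at day 14. In Saos-2, array 1 read 3.02 and array 2 was undetected at day 0, the arrays read 6.85 and 7.05 at day 7, and 7.34 and 6.75 at day 14. Every array of days 7 and 14 was above every array of day 0, in both cell types, and the arrays of days 7 and 14 overlapped.

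The scanner's total gene signal, the signal its software combines over all probes of a miRNA, not scaled between arrays, gave the same order for miR-188-5p. The signal was 3.18 units on the only day 0 array that detected it, 89.2 to 206 units over the 4 arrays of day 7 and 203 to 364 units over the 4 of day 14. Its 2 probes moved alike, with background-subtracted spot medians of 0.43 to 5.85 units at day 0 and 185 to 348 units at day 14. In both clones the signal of day 14 (339 and 364 units) was higher than that of day 7 (168 and 176 units).

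**Figure D2:**
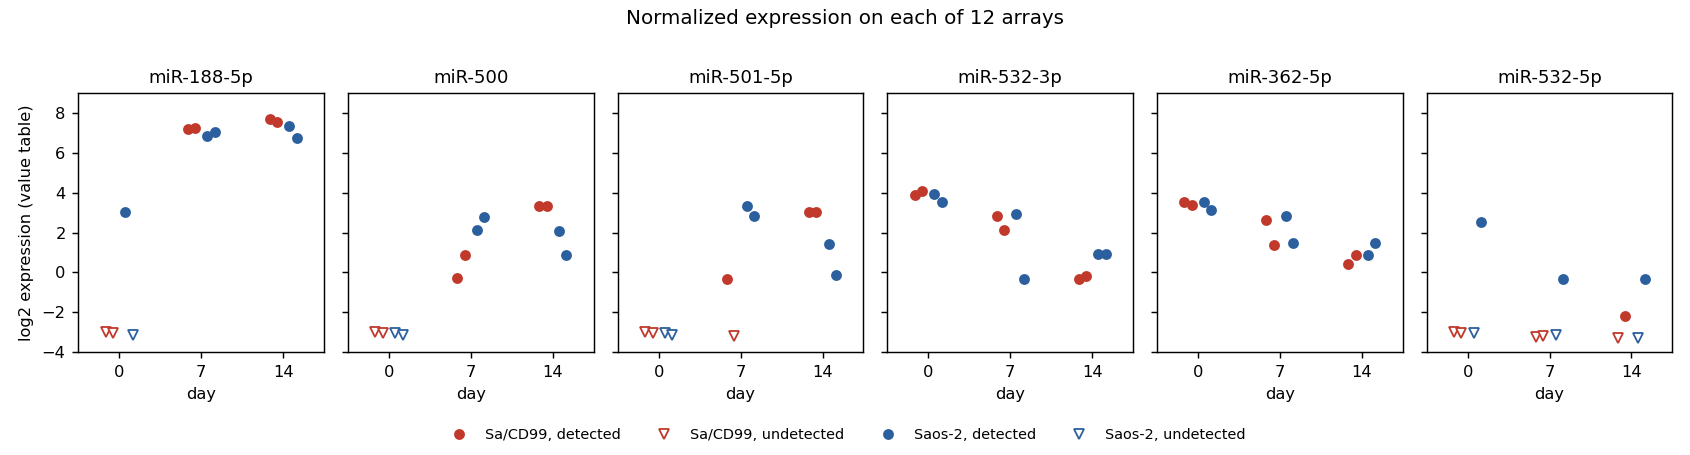
Normalized log2 expression from the value table (y axis) by day (x axis) for 5 members and miR-501-5p, 1 point per array, red for Sa/CD99 and blue for Saos-2. Open triangles are undetected values, drawn at the minimum of their column. miR-188-5p went from undetected or 3.02 at day 0 to between 6.75 and 7.72 at day 14, while miR-532-3p and miR-362-5p stood lower at day 14 than at day 0 on this scale.

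Day 7 was compared with day 0, and day 14 with day 0, by limma over all 219 miRNAs, with undetected values set to the lowest detected value of their array. Such a difference is measured from a limit where the day 0 arrays were undetected, and the spots of an undetected miRNA can read above that limit. For miR-188-5p they did in wt36 at day 0, with a mean probe signal of 2.96 units against a lowest detected signal of 1.37 units. They also did in Saos-2 array 2 at day 0, with 1.67 against 1.33 units, and did not in wt22, with 0.98 against 1.38 units. miR-188-5p stood 33.1-fold above day 0 at day 7 (log2 difference of 5.05, SE 0.46, limma adjusted p = 2.3e-05), and 39.4-fold above it at day 14 (5.30, SE 0.46, adjusted p = 6.3e-06), with 1 of the 4 day 0 arrays detecting it. Of all 219 miRNAs, 17.4% were called higher at day 7 and 21% at day 14. In the mean signal of its own probes, read on all 12 arrays, not scaled and with no limit, the geometric means of the days stood in a ratio of 64.0 for day 7 to day 0 and 114 for day 14 to day 0, with no test. The day 0 probe means were 0.98 and 2.96 units in wt22 and wt36, and 5.48 and 1.67 units in Saos-2 arrays 1 and 2. These ratios thus rest on a day 0 signal near the floor, and total signal also differed by day.

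The rise of miR-188-5p was seen within a single slide. Both day 0 and day 7 arrays of Saos-2 lay on slide 1, where the log2 difference was 5.06 (SE 0.65, limma adjusted p = 0.00038), in a comparison that called 18.3% of miRNAs higher. It was 6.20 without array 1 of day 0, the array that detected it, and 3.93 without array 2 of day 0, and was called in both. With slide as a term the difference of day 14 from day 0 over both cell types was 5.47 (SE 0.88, limma adjusted p = 0.00073), where 56.2% of miRNAs were called. From day 7 to day 14 the difference was 0.25 (95% interval -0.77 to 1.28), which did not pass the test. All 12 fits that left out 1 array called miR-188-5p at both days, with log2 differences of 4.73 to 5.87 at day 14.

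The order of the 6 groups for miR-188-5p by mean table value was Sa/CD99 day 14 (7.64 ± 0.11, SD, n = 2), Sa/CD99 day 7 (7.23 ± 0.044), Saos-2 day 14 (7.04 ± 0.41) and Saos-2 day 7 (6.95 ± 0.14), followed by the day 0 groups. The arrays of Saos-2 day 14 spanned those of Sa/CD99 day 7 and of Saos-2 day 7, so these neighbours did not differ beyond their spread. The clones of Sa/CD99 lay higher at day 14 than at day 7 without overlap, a difference of 0.41 that did not pass the test (SE 0.65, limma adjusted p = 0.62).

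miR-500, the 5p strand named miR-500a-5p in current nomenclature, was undetected on all 4 arrays of day 0 and detected on the 8 others. Its table values in the clones wt22 and wt36 were -0.28 and 0.88 at day 7, and 3.32 and 3.32 at day 14. In Saos-2 they were 2.12 and 2.77 at day 7, and 2.10 and 0.88 at day 14. The day 7 values of Sa/CD99 lay below both Saos-2 values, and the day 14 values lay above them.

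In total gene signal, miR-500 read 2.17 and 4.58 units in Sa/CD99 at day 7 and 18.2 and 20.6 units at day 14. In Saos-2 it read 4.02 and 15.9 units at day 7 and 7.58 and 9.02 units at day 14. The higher of the Saos-2 day 7 arrays, array 2, also had the larger total signal of that pair (56553.2 against 25231.7 units) and detected 229 miRNAs, the most of any array. The part of that array's signal in the Saos-2 values was not tested. The 3 probes of miR-500 had day 0 medians of 0.25, 0.31 and 0.52 units and day 14 medians of 12.5, 11.2 and 12.5 units. In wt22 at day 7 they read 3.56, 4.61 and 5.67 units, each above the 2.17 units of total gene signal on that array.

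Against day 0, miR-500 was not called in the table, with a log2 difference of -0.42 (SE 0.44, limma adjusted p = 0.39) at day 7 and 0.62 (SE 0.44, adjusted p = 0.21) at day 14. These values compare detected arrays with a day 0 limit that was high on the scale of the table: the lowest detected value of a day 0 column was 0.75 to 2.39, against -3.09 to 0.37 at days 7 and 14. On the total gene signal scaled to the 75th percentile of each array miR-500 was called higher at both days, at least 2.62-fold at day 7 (log2 difference of 1.39, adjusted p = 0.0095) and at least 6.10-fold at day 14 (2.61, adjusted p = 6.5e-05). That scaling called 33.3% of miRNAs higher at day 14. With slide as a term, on the scale of the table, miR-500 was called at day 14 (4.09, SE 0.89, limma adjusted p = 0.0034) and not at day 7 (1.32, adjusted p = 0.069). That fit takes both cell types to change alike, while the changes of miR-500 from day 7 to day 14 had opposite signs in the table. It also uses the day 0 limits, so it cannot decide the change of miR-500 with day. The call for miR-500 against day 0 thus changed with the scale and with the slide term.

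Within slide 2, miR-500 rose from day 7 to day 14 in Sa/CD99, by 3.02 on the log2 scale (SE 0.62, limma adjusted p = 0.021), where 4.11% of miRNAs were called higher. The call was lost without the array of wt22 at day 7 (adjusted p = 0.20), of wt22 at day 14 (0.12) or of wt36 at day 14 (0.089), and without the filter on detection (0.18). The scanner arrays under the table's labels gave 1.73 (adjusted p = 0.0073). In Saos-2 the same interval gave -0.96 (SE 0.62, adjusted p = 0.73). The difference between these changes was 3.98 (SE 0.88, adjusted p = 0.025), in a contrast added after the values were seen that called 5.48% of miRNAs. In unscaled total gene signal the change in Saos-2 was 0.050, of the other sign. For Saos-2, day 7 and day 14 lay on different slides. Neither its change nor the difference between the changes can therefore be told apart from slide.

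Sa/CD99 was compared with Saos-2 at each day at the threshold of the study's methods, a p of at most 0.01 and a 1.4-fold change. At day 7, miR-500 was the only one of the 4 tested members called, lower in Sa/CD99 by a log2 difference of -2.15 (SE 0.62, limma adjusted p = 0.27). That rule called 1.37% of miRNAs lower and 2.74% in either direction. Of the 12 fits that left out 1 array, 6 kept this call for miR-500, and the scaled and unscaled total gene signal did not give it (-1.28 and -1.34). The day 7 arrays of Sa/CD99 lay on slide 2 and those of Saos-2 on slide 1, so cell type and slide cannot be told apart at day 7. At day 14 the difference of miR-500 was 1.83 (95% interval 0.45 to 3.22, limma adjusted p = 0.14), short of the threshold. At that day 1 of the 4 tested members was called under the scanner arrays with the table's labels. The same count came with columns shifted to a common median, and with undetected values at the column minimum.

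miR-501-5p, which is no member but shares the last 11 bases of miR-500, had a like order of values. It was undetected at day 0 and in the clone wt36 at day 7, read -0.36 in wt22 at day 7 and 3.05 in both clones at day 14. In Saos-2 it read 3.32 and 2.81 at day 7 and 1.44 and -0.12 at day 14. From day 7 to day 14 its difference in Sa/CD99 was 3.42 (SE 0.60, limma adjusted p = 0.015) with wt36 of day 7 at its limit, and its difference between the cell types over that interval was 5.82 (SE 0.85, adjusted p = 0.0049). The probes of miR-501-5p read above that limit in wt36 at day 7, with a mean of 5.08 units against a limit of 1.44 units and against 5.25 units in wt22. The total gene signal of wt22 at day 7, 1.92 units, was also below its probe mean. In probe means on every array, not scaled, the log2 change in Sa/CD99 was 1.62 and the difference between the cell types 2.25, with no test. The scanner arrays under the table's labels, normalized again by rma, gave 1.35 for Sa/CD99 (limma adjusted p = 0.045) and 2.46 between the cell types (adjusted p = 0.074), which did not pass. Without the filter on detection the change in Sa/CD99 did not pass the test (limma adjusted p = 0.18), and under the scanner arrays as filed it was -0.83 (adjusted p = 0.64). The Saos-2 arrays of day 7 and day 14 lay on different slides, so the differences between the cell types cannot be told apart from slide. Whether probes of miR-500 or miR-501-5p also bind the other strand was not tested. The other mature miRNAs of the cluster with a row, miR-188-3p, miR-500*, miR-501-3p and miR-502-5p, were undetected on all 12 arrays.

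miR-532-3p, the 3p strand of the most upstream hairpin, was detected on all 12 arrays and read lower in the table at the later days. In the clones wt22 and wt36 the log2 values were 3.90 and 4.10 at day 0, 2.81 and 2.12 at day 7, and -0.35 and -0.18 at day 14. In Saos-2 they were 3.95 and 3.55 at day 0, 2.94 and -0.33 at day 7, and 0.94 and 0.93 at day 14. The day 0 and day 14 values did not overlap in either cell type.

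miR-362-5p, the 5p strand of MIR362, followed a like order. In the clones its log2 values were 3.52 and 3.37 at day 0, 2.64 and 1.36 at day 7, and 0.45 and 0.88 at day 14. In Saos-2 they were 3.52 and 3.14 at day 0, 2.85 and 1.47 at day 7, and 0.88 and 1.49 at day 14. Every value of day 14 was below every value of day 0.

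On the scale of the table both were called lower at day 14, miR-532-3p by a log2 difference of -3.54 (SE 0.60, limma adjusted p = 0.00045) and miR-362-5p by -2.46 (SE 0.42, adjusted p = 0.00046). At day 7 the differences were -1.99 (adjusted p = 0.014) and -1.30 (adjusted p = 0.018). For miR-532-3p the day 7 value was -1.17 without array 2 of Saos-2 at day 7 and -2.81 without array 1, called in both. miR-362-5p was called at day 7 in 8 of the 12 fits that left out 1 array. With slide as a term miR-532-3p and miR-362-5p were called lower at day 14 (-5.18 and -2.51, limma adjusted p = 0.0053 and 0.023), and at day 7 miR-532-3p was (-2.81, adjusted p = 0.015) and miR-362-5p was not (-1.33, adjusted p = 0.053). Of all 219 miRNAs, 49.8% were called lower at day 14 and 36.5% at day 7, and the median difference over the 219 miRNAs was -1.47 at day 14. Over the 4 tested members the median at day 14 was -0.92.

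In unscaled total gene signal neither miRNA was called lower. miR-532-3p read 6.77 to 8.01 units at day 0, 5.88 to 8.50 units at day 7 and 4.40 to 9.56 units at day 14. miR-362-5p read 4.18 to 5.84 units at day 0, 5.31 to 12.1 units at day 7 and 5.40 to 13.4 units at day 14. The ranges of the 3 days overlapped for both. Without scaling, the day 14 difference was -0.21 for miR-532-3p (limma adjusted p = 0.62) and 0.74 for miR-362-5p (adjusted p = 0.16), and the median over all miRNAs was 0.68, with 40.2% called higher and 7.31% lower.

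With the 75th percentile scaling, where the median over all miRNAs was 0.10, miR-532-3p was still called lower at day 14 (-0.79, SE 0.27, limma adjusted p = 0.028) and miR-362-5p was not called (0.16, adjusted p = 0.58). That scaling called 19.2% of miRNAs lower. Each of the 2 miRNAs was carried mainly by 1 of its 2 probes. For miR-532-3p the brighter probe had medians of 14.1, 13.8 and 11.3 units at days 0, 7 and 14, and the dimmer probe 1.62, 1.69 and 0.31 units. For miR-362-5p the brighter probe had medians of 7.91, 13.3 and 13.7 units, and the dimmer probe 2.03, 3.78 and 3.19 units.

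**Figure D3:**
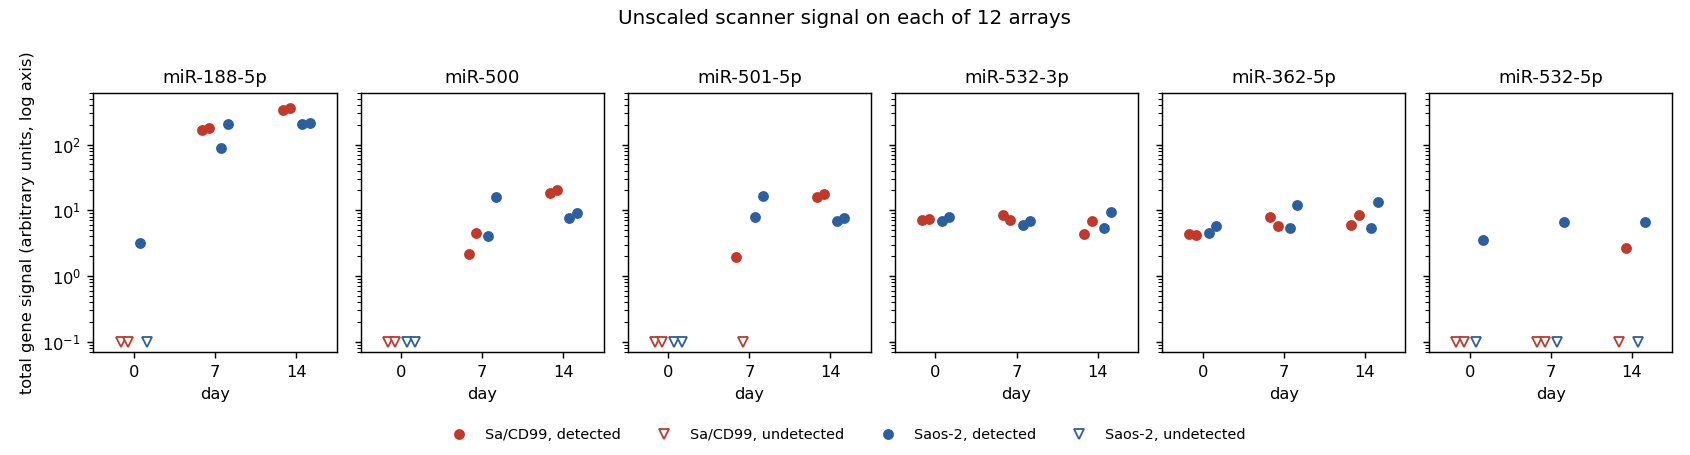
Total gene signal of the scanner arrays under the labels of the table (y axis, arbitrary units, log axis), not scaled between arrays, by day (x axis), 1 point per array, red for Sa/CD99 and blue for Saos-2. Open triangles are undetected, drawn at the value of 0.1 that the files give them. miR-532-3p stayed between 4.40 and 9.56 units over all days, while miR-188-5p reached 364 units at day 14.

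Differences taken within an array do not depend on a scaling factor, and they showed the members changing unequally. In unscaled signal, the log2 difference between miR-188-5p and miR-532-3p was -2.59 to -1.09 over the 4 arrays of day 0, with undetected values at the limit, 3.92 to 4.92 at day 7 and 4.50 to 6.27 at day 14. Between miR-500 and miR-532-3p it was -2.59 to -2.18 at day 0, -1.97 to 1.22 at day 7 and -0.084 to 2.05 at day 14. Between miR-532-3p and miR-362-5p it was 0.46 to 0.81 at day 0 and -0.49 to 0.012 at day 14. For the first 2 of these pairs no array of day 14 overlapped the range of day 0, upward, and for the third none did, downward. A test of such pairs had been planned only where both members were detected on all 8 arrays of days 0 and 14, with both arms of a hairpin or with miR-532-5p as partner, and no pair met this.

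**Figure D4:**
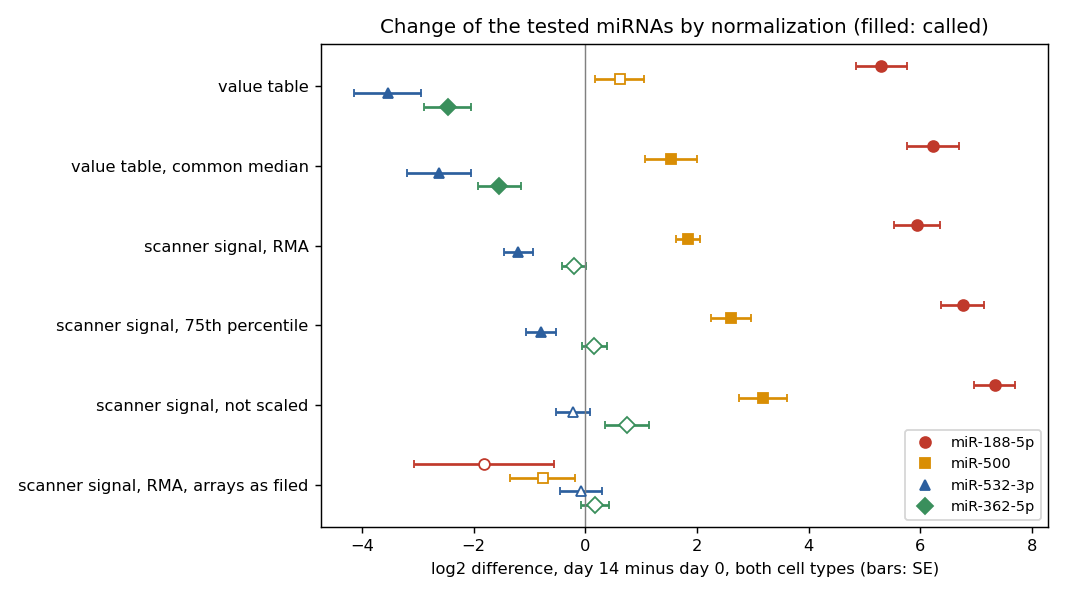
Log2 difference of day 14 minus day 0 over both cell types (x axis, bars are the SE) for the 4 tested members under 6 ways of normalizing or labelling the arrays (y axis), filled where called at an adjusted p of at most 0.05. Under the 5 rows that follow the labels of the table miR-188-5p lay between 5.30 and 7.33, with undetected arrays at their lowest detected value, while miR-362-5p ran from -2.46 to 0.74. The unscaled mean signal of the miR-188-5p probes gave 6.84, with no limit but with day 0 signals near the floor. Under the arrays as filed none of the 4 was called.

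The table also gave other rows with a profile like that of the members, by the smallest root mean square difference between profiles centred on their own means over 12 arrays. Among 98 miRNAs outside the cluster detected on all arrays, the nearest to the mean of miR-532-3p and miR-362-5p were miR-197 (0.29), miR-331-3p (0.46) and miR-98 (0.48). The nearest to miR-188-5p were miR-923_v12.0 (0.40), miR-1225-5p (0.42) and miR-1202 (0.55). Over all 214 tested miRNAs outside the cluster, with undetected values at the limit, they were miR-638 (0.37), miR-575 (0.40) and miR-923_v12.0 (0.40). For miR-500 the list, which here allowed other cluster miRNAs, gave miR-1469 (0.53), miR-501-5p (0.59) and miR-877 (0.60). The points share arrays, total signal and the day 0 limit.

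miR-1225-5p and miR-575 belong to a comparison list of 7 miRNAs outside the cluster, with miR-1207-5p, miR-1915, miR-630, miR-663 and miR-765. All 7 were called higher at day 14 than at day 0, with a median log2 difference of 5.29 and a range of 3.14 to 7.10, and the 5.30 of miR-188-5p lay within that range. The list held miRNAs that an earlier analysis of these data named as strongly lower on arrays of low signal. The day 0 arrays had the lowest total signal, so the direction of the list followed from its choice and is not independent evidence. The part of array signal in the value of miR-188-5p was not tested.

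miR-532-5p, the other strand of the MIR532 hairpin, was detected on 4 arrays and not tested. It read -2.21 in the clone wt36 at day 14, and 2.56, -0.35 and -0.33 on array 2 of Saos-2 at days 0, 7 and 14. In total gene signal these were 2.68, 3.47, 6.70 and 6.68 units. The 3 Saos-2 arrays that detected it were all numbered 2, and the groups overlapped. Both arms of MIR532 were thus measured at once on those 4 arrays only, where miR-532-3p was detected on every array.

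Of the 3 members detected nowhere, miR-362-3p had spot medians of -1.84 to 1.59 units, miR-502-3p of -0.0007 to 3.24 units and miR-660 of -0.96 to 3.03 units over both probes of each and all 12 arrays. Their total gene signal, a different quantity, stood at the placeholder of undetected miRNAs on every array. Nothing can be said of the change of these 3 with day at this signal.

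Counted by comparison, 3 of the 4 tested members were called at day 7 against day 0 over both cell types, where 53.9% of all miRNAs were called, and 3 at day 14, where 70.8% were. A share of 3 in 4 is near that of all miRNAs at day 14. In Sa/CD99 alone 1 of the 4 (miR-188-5p) was called at day 7 against a background of 27.9%, and 3 at day 14 against 57.1%. In Saos-2 alone 2 (miR-188-5p and miR-532-3p) were called at day 7 against 37.9%, and 3 at day 14 against 47.9%. At day 7 in Saos-2 miR-532-3p kept its call in 3 of the 12 fits that left out 1 array, with log2 differences of -0.81 without array 2 of day 7 and -4.09 without array 1. At day 14 in Saos-2 the count fell to 1 without array 1 of day 0 or array 1 of day 14, where miR-362-5p (limma adjusted p = 0.067 and 0.058) and miR-532-3p (0.084 and 0.054) lost their calls. From day 7 to day 14 the counts were 0 over both cell types (4.57%), 1 in Sa/CD99 (7.31%) and 0 in Saos-2 (0.913%), by limma at the adjusted p. With the replicate number as a block the count in Sa/CD99 was 2, with miR-532-3p added (adjusted p = 0.045). At an unadjusted p under 0.05 the 3 unblocked counts were 3, 3 and 0. No member was called for a difference between the cell types in its change from day 0 to day 14, by the adjusted or the unadjusted p, where 0% of all miRNAs were called by the adjusted p. For miR-188-5p and miR-500 that contrast rests on limits at day 0 and gives no measured difference.

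Over all days, none of the 4 tested members was called between Sa/CD99 and Saos-2 (limma, adjusted p of at most 0.05), and none had an unadjusted p under 0.05, where 0% of all 219 miRNAs were called. The differences were 0.070 for miR-532-3p (95% interval -1.02 to 1.16) and -0.19 for miR-362-5p (-0.95 to 0.57). For miR-188-5p and miR-500 a difference over all days would average in limits at day 0 and is not given. For miR-188-5p it was 0.28 (95% interval -1.17 to 1.73) at day 7 and 0.60 (-0.85 to 2.05) at day 14. At day 7 the cell types lay on different slides and cannot be told apart from slide. At day 0 and day 14 none of the 4 passed the threshold of the study's methods, which called 0% of miRNAs at day 0 and 7.76% at day 14. At an unadjusted p under 0.05 the members counted 0 at day 0 and 1, miR-500, at day 14.

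The filing of the scanner arrays gave another account of the same members. Under it miR-188-5p read 89.2 units and undetected in the clones wt22 and wt36 at day 0, 3.18 and 206 units at day 7, and undetected in both at day 14. The 6 Saos-2 arrays as filed read 339 and 203 units at day 0, 168 and 364 units at day 7, and 216 and 176 units at day 14. No member was called for day under this filing, and the log2 difference of miR-188-5p between day 14 and day 0 was -1.81 (limma adjusted p = 0.55), the opposite sign. miR-188-5p was instead called lower in Sa/CD99 over all days (-4.09, limma adjusted p = 0.023). In this filing slide 1 carried Sa/CD99 alone and slide 2 Saos-2 alone, so cell type and slide cannot be told apart. Which record holds the right labels was not settled by these data, and each statement on day rests on the labels of the table.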

How the data were processed

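The 12 arrays were 1-colour Agilent human miRNA arrays (v3) hybridised with Cy3-labelled total RNA. The authors deposited a table of normalized log2 values, which their methods describe as an adapted rma, and scanner files with the intensity of each spot and the total gene signal of each miRNA. The scale and centring of the deposited log2 table are not described in it, and its 2116 detected values took only 244 distinct values. Undetected miRNAs stand at the minimum of their column. All values here follow the table's column labels. Undetected values were set to the lowest detected value of the column. A miRNA entered the tests if some group detected it on each of its arrays (219 of 851), and limma 3.58.1 (R 4.3.3) was fitted to the 6 groups.

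Days, all days together and interactions were called at 0.05 after Benjamini-Hochberg adjustment, and cell types at each day at the threshold of the methods (p of at most 0.01 and 1.4-fold). A difference counted as a call only where at least 1 group on its higher side was detected on all its arrays, a rule added after seeing the data. Fits were tested on simulated data. The named miRNAs were the 8 members, the other mature miRNAs of the cluster, the nearest profiles and a comparison list of 7. The members and lists were chosen with earlier results of these data known. Same-numbered arrays deviated together (correlation of deviations 0.45 to 0.52 between days for the clones and 0.41 to 0.63 for Saos-2, over 100 miRNAs), so a replicate block was an alternative fit. Other alternatives were the scanner arrays as filed and under the table's labels, other scalings, filters and thresholds, and leaving out each array. The unscaled total gene signal, the mean signal of a miRNA's own probes, the interaction of days 7 and 14, and the profiles nearest to miR-500 and, over all tested miRNAs, to miR-188-5p were added after seeing the data. The number of arrays, 2 per group, limits the precision.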

Additional observations from a re-analysis of the deposited data

Results flagged for a closer look

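The change of miR-500 from day 7 to day 14 had opposite signs in the cell types on the scale of the table. It was 3.60 in the clone wt22 and 2.44 in wt36 on the log2 scale of the table, and -0.029 and -1.89 in the Saos-2 arrays 1 and 2. The mean change in Saos-2 did not pass the test (-0.96, limma adjusted p = 0.73), and the unscaled total gene signal of Saos-2 array 1 was 4.02 units at day 7 and 7.58 units at day 14, so that the mean change in Saos-2 on that scale was 0.050. The difference between the mean changes was 3.98, with a limma adjusted p of 0.025 in an interaction contrast chosen after the values were seen. On the scaled total gene signal it was 2.75 (limma adjusted p = 0.048), and under the scanner arrays with the table's labels 2.10 (limma adjusted p = 0.029). Under the scanner arrays as filed it was -0.39 (limma adjusted p = 0.99). Under the labels of the table, the Saos-2 arrays of day 7 and day 14 lay on different slides, so this difference cannot be told apart from slide.

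For miR-501-5p the changes were 3.41 and 3.43 in wt22 and wt36, where wt36 at day 7 was set to its limit although its probes read a mean of 5.08 units against a limit of 1.44, and -1.88 and -2.93 in the Saos-2 arrays. The mean change in Saos-2 did not pass the test (-2.40, limma adjusted p = 0.11), and passed it with the replicate number as a block (adjusted p = 0.040). The difference was 5.82 (limma adjusted p = 0.0049), and 4.14 on the scaled total gene signal (adjusted p = 0.0052), both with wt36 at that limit. In unscaled probe means on every array, which use no limit, it was 2.25, with no test. The scanner arrays under the table's labels, normalized again by rma, gave 2.46 (limma adjusted p = 0.074), and the arrays as filed 0.19 (limma adjusted p = 0.99). Under the labels of the table this difference, too, cannot be told apart from slide.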

How the results depend on the processing

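The fits were repeated under up to 12 alternatives and without each of the 12 arrays. The additive fit with slide gave values for 4 comparisons, those over both cell types or over all days, and the filter on miRNAs detected on all 12 arrays left miR-532-3p and miR-362-5p of the members. Counts are of the 4 tested members called.

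Under the scanner arrays as filed, no member was called (0) for day 7 or day 14 against day 0, over both cell types or in either, for day 14 against day 7 in Sa/CD99 (1 in the table), or between cell types at day 7, while 1 was called between cell types at day 14 and 1 over all days. The values that turned were -1.81 and -6.05 for miR-188-5p (day 14 against day 0, and Sa/CD99 against Saos-2 at day 14) and -0.20 (day 7 against day 0 in Saos-2). For miR-500 they were 0.066, -0.76, -1.03 and -0.98 (day 7 and day 14 against day 0, day 14 against day 7 in Sa/CD99, and cell types at day 14). For miR-362-5p they were 0.12 and 0.17 at days 7 and 14. The cause was not tested.

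For day 14 against day 7 over both cell types, 0 members were called in the table and 3 had an unadjusted p under 0.05, while the 75th percentile scaling called 1 and the additive fit with slide 1. For day 7 against day 0 in Sa/CD99 the table called 1, the column minimum 2, only miRNAs detected on all 12 arrays 0 and only the arrays compared 3. In Saos-2 the table called 2 for day 7, and the common median, the miRNAs detected on all 12 arrays, only the arrays compared and the other threshold each called 1. For day 14 in Saos-2 the table called 3 and the common median 1. For day 14 against day 7 in Sa/CD99 the table called 1, no filter 0, the miRNAs detected on all 12 arrays 0, and the replicate block, only the arrays compared and the other threshold each 2, with miR-532-3p added under the block at an adjusted p of 0.045. The block changed no other count. Between cell types at day 7 the table called 1, and the relabelled scanner arrays, both scalings of total gene signal, no filter, the miRNAs detected on all 12 arrays, only the arrays compared and the other threshold each called 0. At day 14 the table called 0, and the relabelled scanner arrays, the common median and the column minimum each called 1.

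miR-500 at day 7 against day 0 turned to 1.17 (relabelled scanner arrays), 0.067 (common median), 1.39 (75th percentile), 1.85 (not scaled), 4.42 (column minimum) and 1.32 (additive fit). miR-362-5p turned to 0.19 at day 7 and 0.16 at day 14 (75th percentile), and to 0.66 and 0.74 (not scaled).

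Without 1 array the counts ran from 2 to 3 and 3 to 3 (day 7 and day 14 against day 0), 0 to 2 (day 14 against day 7), 1 to 3, 1 to 3, 3 to 3 and 1 to 3 (Sa/CD99 and Saos-2 at day 7, then at day 14), 0 to 2 and 0 to 1 (day 14 against day 7 in each), and 0 to 2 and 0 to 1 (cell types at days 7 and 14). At day 7, miR-362-5p lost its call without wt22 at day 0 (adjusted p = 0.055), wt36 at day 7 (0.077), Saos-2 array 1 at day 0 (0.052) or array 2 at day 7 (0.052). In Saos-2 at day 7, miR-532-3p kept its call in 3 of the 12 fits. At day 14 it lost it without array 1 or 2 of Saos-2 at day 0 (adjusted p = 0.084 and 0.050) or at day 14 (0.054 and 0.054).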
